A study of Mus musculus with 1627 samples.

Results

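Integrins are cell surface receptors made of an alpha and a beta chain, and 10 of the mouse genes for these chains are described here: the alpha subunits Itgae, Itga4, Itga6, Itgal and Itgav and the beta subunits Itgb1, Itgb2, Itgb3, Itgb7 and Itgb8. They were chosen by name, and each has a row among the 23725 genes of the table. The cells were regulatory T cells (Tregs), the CD4 T cells that restrain immune responses and that carry the transcription factor Foxp3. They came from male B6 Foxp3-Ires-Gfp mice, a strain in which Foxp3-expressing cells make green fluorescent protein, aged 8 months and taken 4 days after muscle injury with cardiotoxin, a toxin from snake venom. Of the 1627 cells, 15.9% came from 1 spleen library, and 41.4% and 42.7% from 2 libraries of injured muscle. The spleen cells too were from injured mice, and no uninjured muscle was compared.

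An integrin reaches the cell surface only as a pair, and 1 chain can have several partners. Alpha E pairs with beta 7 and binds E-cadherin on epithelial cells. Alpha 4 pairs with beta 1 to bind VCAM-1 and fibronectin, or with beta 7 to bind MAdCAM-1 of gut vessels. Alpha L with beta 2 is LFA-1, which binds ICAM-1 and holds T cells to other cells. Alpha 6 with beta 1 binds laminin, and alpha V pairs with beta 1, beta 3 or beta 8 to bind matrix proteins or the latent form of TGF-beta. Gene activity in T cells sets which pairs can form, and the tissue in which a T cell stays depends partly on them.

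The counts were unique molecular identifiers (UMIs), each marking 1 captured mRNA molecule, read from the 3′ side of the transcript. Levels are given as CPM, the UMIs of a gene divided by all UMIs of the library and multiplied by 1000000, and a level of 1 gene was compared only with the same gene elsewhere. The libraries held 982570, 1533277 and 1916496 UMIs, and the median per cell was 3541 for spleen, 1976 for muscle library 1 and 2488 for muscle library 2. The sorted cells carried their defining markers: Foxp3 was at 368.4, 554.4 and 551.5 CPM, and Ctla4 and Ikzf2 were above 850 CPM in each library. The labels name no animal, so nothing here is replicated over animals, no test of muscle against spleen was possible, and the 95% intervals cover counting error only. Tissue, dissociation (mechanical for spleen, collagenase and dispase for muscle) and library cannot be told apart. The muscle libraries shared 11 cell barcodes, and muscle library 1 shared 1 with spleen.

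None of the genes adjoins another in the genome (GRCm38, GENCODE annotation). Itga6, Itga4 and Itgav share the plus strand of chromosome 2, and Itgae and Itgb3 that of chromosome 11. Itgae spans chr11:73090583-73147446 on the plus strand with 31 exons, and Itga4 spans chr2:79255426-79333123 on the plus strand with 28 exons. Itgb7 spans chr15:102215995-102231944 on the minus strand with 15 exons. Itgb1 spans chr8:128685654-128733200 on the plus strand. The last 2581 bases of Itga4 overlap Cerkl on the other strand, and Haspin lies inside Itgae on the other strand. Counts listed for these neighbours were 0 in every library for Cerkl and 3, 2 and 0 UMIs for Haspin (as Gsg2).

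The RefSeq tables used here held promoter sequence for 5 of the 10 genes: Itga4, Itgav, Itgb1, Itgb7 and Itgb8. Those of Itga4 and Itgb7 are printed because the genes code for the chains of 1 heterodimer, alpha 4 beta 7, and their mRNA differed between muscle and spleen in opposite directions. Each sequence is the 250 bases before the RefSeq start site (GRCm38.p6), 5′ to 3′ on the gene's strand, from chr2:79255176-79255425 for Itga4 (plus strand) and chr15:102231936-102232185 for Itgb7 (minus strand). Capitals mark matches, on either strand, to TGTGGT (the RUNX core), TGANTCA (AP-1) or CCNCNCCC (a KLF-type GC or CACCC box).
Itga4: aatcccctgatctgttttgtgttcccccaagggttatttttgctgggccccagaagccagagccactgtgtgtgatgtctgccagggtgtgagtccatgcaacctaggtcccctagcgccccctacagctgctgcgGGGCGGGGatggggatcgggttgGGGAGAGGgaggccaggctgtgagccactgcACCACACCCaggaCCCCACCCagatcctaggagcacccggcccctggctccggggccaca
Itgb7: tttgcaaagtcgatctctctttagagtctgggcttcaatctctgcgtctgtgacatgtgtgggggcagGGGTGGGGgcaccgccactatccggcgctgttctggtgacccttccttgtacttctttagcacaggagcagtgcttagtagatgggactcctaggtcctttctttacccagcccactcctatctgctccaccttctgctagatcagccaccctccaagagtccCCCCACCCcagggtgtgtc
The Itga4 window held 1 RUNX core, starting 60 bases before the start site and sharing bases with 1 of its 4 KLF-type matches. The Itgb7 window held 2 KLF-type matches and no RUNX core, and neither window held the AP-1 letters. Of 32851 windows of the same length, 14.05% held the RUNX letters, 6.75% the AP-1 letters and 45.9% the KLF-type letters. A match is only a match of letters, and its absence says nothing of the factor.

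Itgae was higher in muscle, Itga4 and Itga6 were lower, Itgb7 was moderately higher, and Itgal and Itgb2, the chains of LFA-1, were at nearly the same level everywhere. The call used here asked for a difference of 2-fold or more from spleen in each muscle library, with the same sign, and for 50 UMIs in all. Of the 10 genes 9 reached that count, and 1 was called higher, 2 lower and 6 neither. Over all 7617 genes with that count, 7.47% were called higher and 3.45% lower. The median log2 fold was 0.18 over the 9 genes and 0.05 over all 7617 genes.

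**Figure D1:**
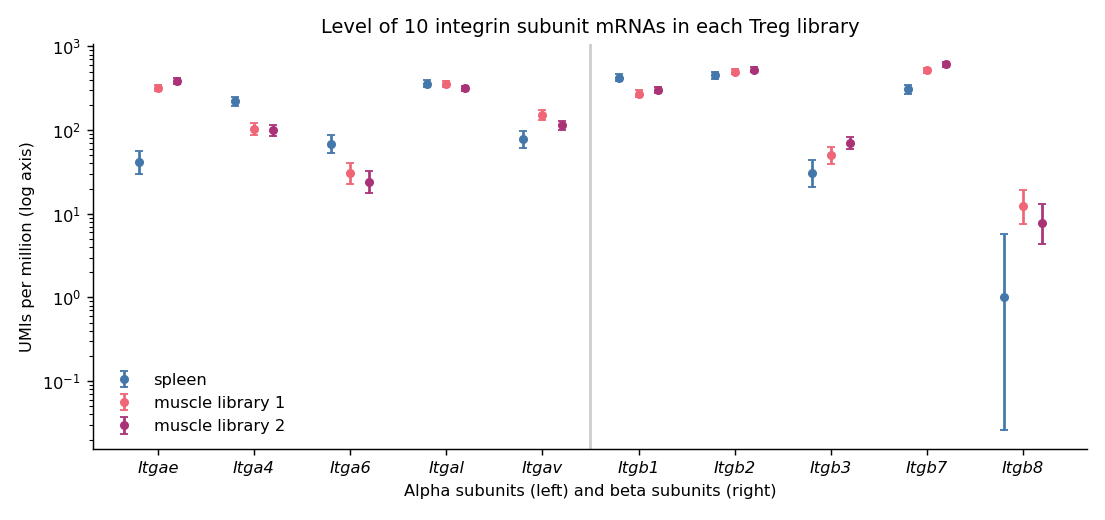
Level of each integrin subunit mRNA (CPM, log axis) in spleen and the 2 muscle libraries; points are library sums and bars exact 95% Poisson intervals. The muscle points of Itgae (317.6 and 387.7 CPM) lie far above spleen (41.7 CPM), those of Itga4 and Itga6 lie below spleen, and the Itgb8 spleen point rests on 1 UMI.

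Itgae, the alpha E chain known as CD103, was at 41.7 CPM (29.9 to 56.6) in spleen, from 41 UMIs. It was at 317.6 CPM (290.03 to 347.1) in muscle library 1 and at 387.7 CPM (360.3 to 416.6) in muscle library 2. Both muscle libraries were far above spleen and the intervals did not approach each other. The level in muscle library 1 was 7.61-fold (5.53 to 10.7) that of spleen, and in muscle library 2 it was 9.29-fold (6.78 to 13.1). The muscle libraries differed from each other by 1.22-fold (1.09 to 1.37), a small gap beside the one to spleen. A UMI of Itgae was present in 6.95% of spleen cells (18 cells) and in 37.5% and 41.6% of muscle cells. When every cell was thinned to 1000 UMIs, which left out 26 and 7 shallower muscle cells and no spleen cell, the shares were 3.09% (1.34 to 5.995), 21.9% (18.8 to 25.3) and 24.9% (21.7 to 28.3). More muscle cells than spleen cells thus held the mRNA at equal depth.

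Itgb7, the partner of alpha E and 1 of the partners of alpha 4, was at 306.3 CPM (272.7 to 342.98) in spleen and at 519.8 CPM (484.3 to 557.2) and 608.4 CPM (573.98 to 644.4) in the muscle libraries. The folds over spleen were 1.70 (1.48 to 1.94) and 1.99 (1.75 to 2.26), just short of the 2-fold call although all intervals lay above 1. At 1000 UMIs per cell, 19.3% (14.7 to 24.6) of spleen cells held a UMI, against 40.9% (37.1 to 44.8) and 39.9% (36.2 to 43.7) of muscle cells. Of the integrin genes described, Itgb7 and Itgae were those whose share of cells was higher in muscle with no overlap of intervals. How many of all genes show such a gap was not counted. Without thinning the Itgb7 shares were 44.4%, 58.2% and 63.5%.

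Itga4, the alpha 4 chain, was lower in muscle: 219.8 CPM (191.5 to 251.2) in spleen, against 103.05 CPM (87.6 to 120.4) and 99.1 CPM (85.5 to 114.3) in the muscle libraries. It was 2.13 times (1.73 to 2.64) and 2.22 times (1.82 to 2.71) lower, and the 2 muscle libraries agree within counting error. The thinned shares were 13.1% (9.27 to 17.9) of spleen cells and 6.48% (4.71 to 8.66) and 6.11% (4.44 to 8.17) of muscle cells. Without thinning they were 23.9%, 11.6% and 11.1%. With each cell given equal weight, Itga4 was lower by a log2 fold of -0.98 in muscle library 1 and -1.13 in muscle library 2, so it no longer met the 2-fold call.

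Itga6, the alpha 6 chain of laminin receptors, was at 68.2 CPM (52.8 to 86.6) in spleen, 30.7 CPM (22.5 to 40.8) in muscle library 1 and 24 CPM (17.6 to 32) in muscle library 2. It was 2.22 times (1.51 to 3.30) and 2.84 times (1.92 to 4.23) lower in muscle. The counts behind these levels were 67, 47 and 46 UMIs, and with each cell given equal weight its log2 fold of -0.98 in muscle library 1 also missed the call. Thinned shares of 5.02% (2.70 to 8.43), 2.16% (1.19 to 3.60) and 2.18% (1.23 to 3.58) were in the same order, with overlapping intervals.

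Itgb1, the beta chain shared by alpha 4, alpha 6 and alpha V, depended on how cells were weighted. Its library sums gave 422.4 CPM (382.7 to 465.02) in spleen, 273.3 CPM (247.7 to 300.7) in muscle library 1 and 298.5 CPM (274.5 to 323.95) in muscle library 2, or 1.55 times (1.35 to 1.77) and 1.42 times (1.24 to 1.61) lower. The shares of cells with a UMI were nearly the same, 24.7%, 22.6% and 24.9%, and 14.3%, 15.7% and 15.6% at 1000 UMIs per cell. The spleen cells that held Itgb1 had 6.48 UMIs of it each, against 2.76 and 3.31 in muscle, and 1 spleen cell held 29. The mean log2 fold was -0.56 from sums, -0.19 with equal weight per cell and -0.02 at 1000 UMIs per cell. These data thus show no stable size for the Itgb1 difference. The value of -0.02 is from 1 random draw. Another draw put Itgb1 in 18.1% of spleen cells and in 16% and 16.3% of muscle cells, and its fold was not computed.

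**Figure D2:**
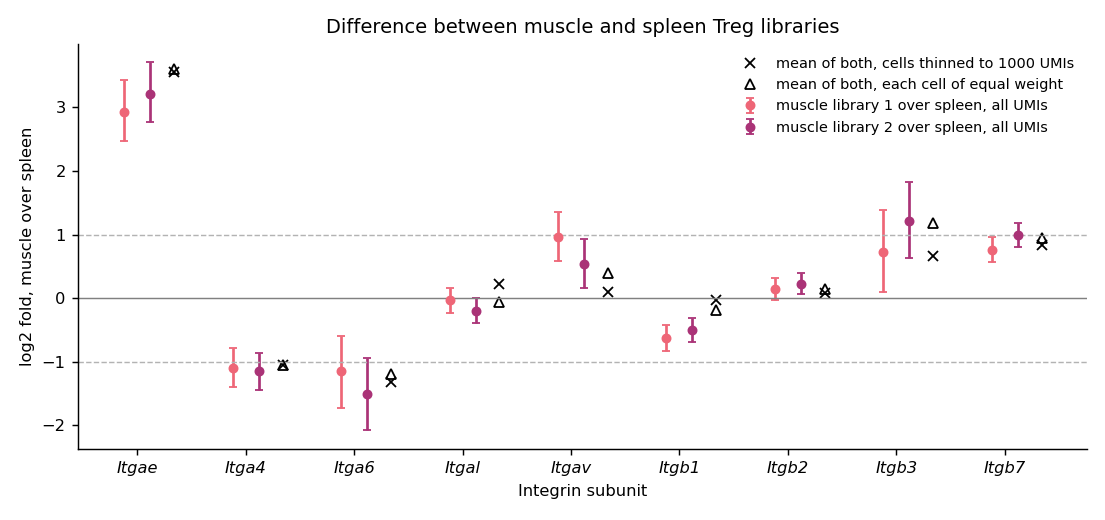
Log2 fold of each muscle library over spleen for the 9 genes with at least 50 UMIs; coloured points with exact 95% intervals use all UMIs, black symbols give the mean over both muscle libraries with cells thinned or equally weighted, and dashed lines mark 2-fold. Over 9 alternatives, not all of them drawn, the log2 fold of Itgae lay within 2.91 to 3.60. That of Itga4 lay within -1.28 to -1.05 and that of Itga6 within -1.51 to -1.15. Some of these alternatives use 1 muscle library only. The mean of Itgb1 moves from -0.56 to -0.02, the latter from 1 random draw.

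The LFA-1 chains differed little. Itgal, the alpha L chain, was at 360.3 CPM (323.7 to 399.8), 352.2 CPM (323.1 to 383.2) and 314.1 CPM (289.5 to 340.2) in spleen and the 2 muscle libraries. Its mean log2 fold was -0.12, and at 1000 UMIs per cell it had the other sign, 0.22. Itgb2, the beta 2 chain, was at 450.9 CPM (409.8 to 494.9) in spleen, and the folds of muscle over spleen were 1.10 (0.981 to 1.24) and 1.17 (1.04 to 1.31). Its thinned share of cells was 26.3%, 26.5% and 27.1%.

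Itgav and its beta partners were seen in fewer cells. Itgav, the alpha V chain, was at 78.4 CPM (61.8 to 97.9), 152.6 CPM (133.7 to 173.5) and 113.75 CPM (99.1 to 129.9), with folds of 1.95 (1.499 to 2.55) and 1.45 (1.11 to 1.91) over spleen. Muscle library 1 was above muscle library 2, at 1.34 times its level (1.11 to 1.62), and the mean log2 fold of 0.75 was 0.09 at 1000 UMIs per cell, where the spleen level rests on 10 cells with 2.70 UMIs each. The share of cells went with the sums: at 1000 UMIs per cell it was 3.86% (1.87 to 6.99) in spleen and 8.18% (6.19 to 10.6) and 6.11% (4.44 to 8.17) in muscle, with overlapping intervals. Itgb3, the beta 3 chain, was at 30.5 CPM (20.6 to 43.6), 50.2 CPM (39.6 to 62.8) and 70.4 CPM (59.1 to 83.4), with folds of 1.64 (1.07 to 2.60) and 2.31 (1.54 to 3.55). Platelets carry much beta 3, and 10 platelet genes together had 3, 4 and 3 UMIs; their part in the Itgb3 difference was not tested. Itgb8, the chain with which alpha V frees TGF-beta, had 1, 19 and 15 UMIs and was too rare for the call. Its ratios of 12.2 (1.94 to 505.9) and 7.69 (1.18 to 323.7) rest on that 1 spleen UMI.

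How low a share can be trusted was read from genes of other cell types, since the sort left no cells that should lack integrins. At 1000 UMIs per cell no cell held Cd79a of B cells, Ckm of muscle fibres, Pf4 of platelets or Col1a1 of fibroblasts. For a count of 0 the exact interval reaches 1.41% of spleen cells and 0.568% and 0.536% of muscle cells. The haemoglobin gene Hba-a2 was in 1.16%, 0.463% and 1.02% of cells, and Acta1, an actin gene whose reads can be shared with other actins, in 2.32%, 2.01% and 4.08%. Itgb8, at 0%, 1.08% and 0.728% of cells, lay near Hba-a2 with overlapping intervals. In muscle Itgb8 lay above the limits of the genes at 0 and above Lyz2 of myeloid cells (0%, 0% and 0.291%). Another draw put Itgb8 at 0.926% and 0.437% of muscle cells, so in muscle library 2 it no longer lay above those limits. Without thinning, Itgb8 was in 0.386%, 2.37% and 1.44% of cells and Hba-a2 in 1.93%, 0.742% and 1.59%. At this depth these shares cannot tell a low level of Itgb8 from background. Itga6 and Itgb3, with thinned shares of 2.16% to 5.02%, lie above Hba-a2 and near Acta1. In the 8 lists of markers of other cell types, 10 genes had 50 UMIs and none met the 2-fold call. Lower in muscle, without a call, were the summed myeloid genes (195.4, 97.2 and 108.01 CPM over 20 genes, 3 of them measured) and the summed endothelial genes (116.02, 62.6 and 60.005 CPM, with 10 of 11 at 0 in spleen). Their part in the integrin differences was not tested.

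**Figure D3:**
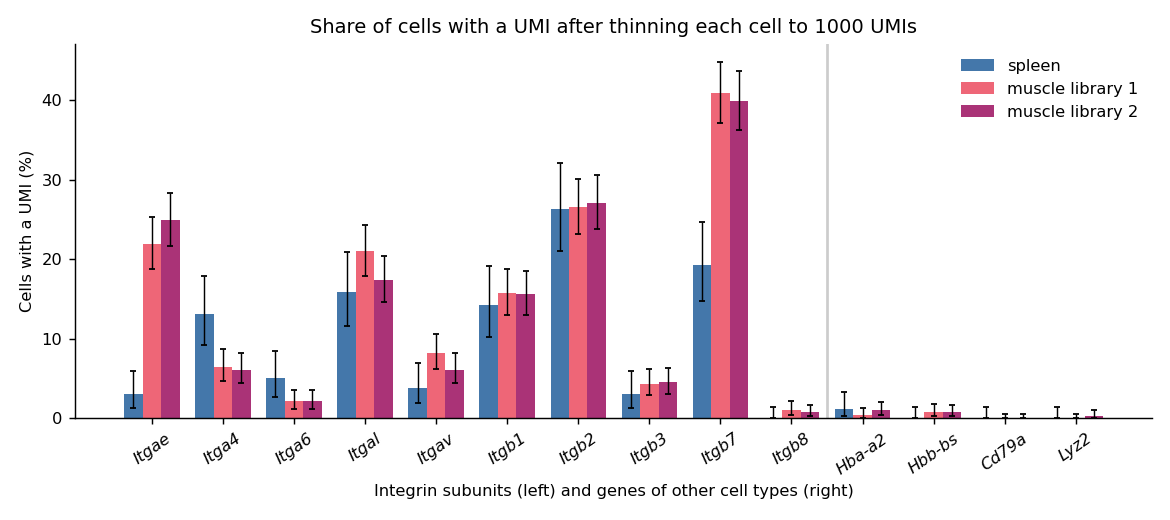
Percent of cells with at least 1 UMI of each gene after thinning every cell to 1000 UMIs, with exact 95% binomial intervals. The muscle points of Itgae and Itgb7 lie above those of spleen, Itga4 is lower, and Itgb8 lies at the level of the haemoglobin genes.

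The chains of a heterodimer were next looked for in the same cells. For Itgae and Itgb7, a UMI of both was present in 1.16% (0.240 to 3.35) of spleen cells and in 9.88% (7.69 to 12.4) and 9.75% (7.64 to 12.2) of muscle cells at 1000 UMIs per cell. The product of the separate shares was 0.596%, 8.96% and 9.93%, within the interval in each library. In muscle library 1, Itgb7 was seen in 45.1% (36.7 to 53.6) of the cells with Itgae and in 39.7% (35.4 to 44.1) of those without. In muscle library 2 it was seen in 39.2% (31.8 to 46.9) of the cells with Itgae and in 40.1% (35.9 to 44.5) of those without. In spleen it was seen in 37.5% (8.52 to 75.5) of the 8 cells with Itgae and in 18.7% (14.1 to 24.1) of those without. Another draw gave 42.9% against 19.4% in spleen, and all UMIs counted gave 66.7% against 42.7%. The spleen share was higher in cells with Itgae in each case, on few cells, and the intervals at 1000 UMIs per cell overlapped in every library.

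Itga4 has a choice between Itgb1 and Itgb7. At 1000 UMIs per cell, the 34 spleen cells with Itga4 held Itgb1 alone in 4 cells, Itgb7 alone in 2, both in 1 and neither in 27. The 42 such cells of muscle library 1 held Itgb1 alone in 5, Itgb7 alone in 12, both in 4 and neither in 21, and the 42 of muscle library 2 held them in 4, 13, 3 and 22. Itgb7 was thus in 8.82% (1.86 to 23.7) of the spleen cells with Itga4 and in 38.1% (23.6 to 54.4) of those of each muscle library. Another random draw of the same size put these at 22.6% (9.59 to 41.1), 29.5% (16.8 to 45.2) and 44.7% (28.6 to 61.7), so the low spleen value rests on few cells and moved with the draw. With all UMIs counted, at unequal depth, Itgb7 was in 50% (37 to 63), 59% (47.3 to 70) and 67.5% (55.9 to 77.8) of cells with Itga4. Within a muscle library, Itgb7 was about as frequent in cells without Itga4, at 41.1% and 40%.

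Other pairs were looked at in the same way. Itgb2 was in 27.2% (19.9 to 35.5) and 26.9% (19.2 to 35.8) of muscle cells with Itgal, and in 26.4% and 27.1% of those without. In spleen the 41 cells with Itgal held Itgb2 in 36.6% (22.1 to 53.1) against 24.3% (18.8 to 30.6), and another draw gave 25.5% against 24.5%. No cell held Itgav and Itgb3 together at 1000 UMIs, among 10, 53 and 42 cells with Itgav. The exact intervals of these shares reach 30.8%, 6.72% and 8.41%. In the other draw 1, 1 and 3 cells did. With all UMIs counted, 4, 6 and 10 cells held both. For none of the 8 pairs did the beta share differ between cells with and without the alpha chain, with no overlap of intervals, in both muscle libraries. Most mRNA molecules of a cell were not captured, so a missing partner does not mean that the cell lacks it.

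**Figure D4:**
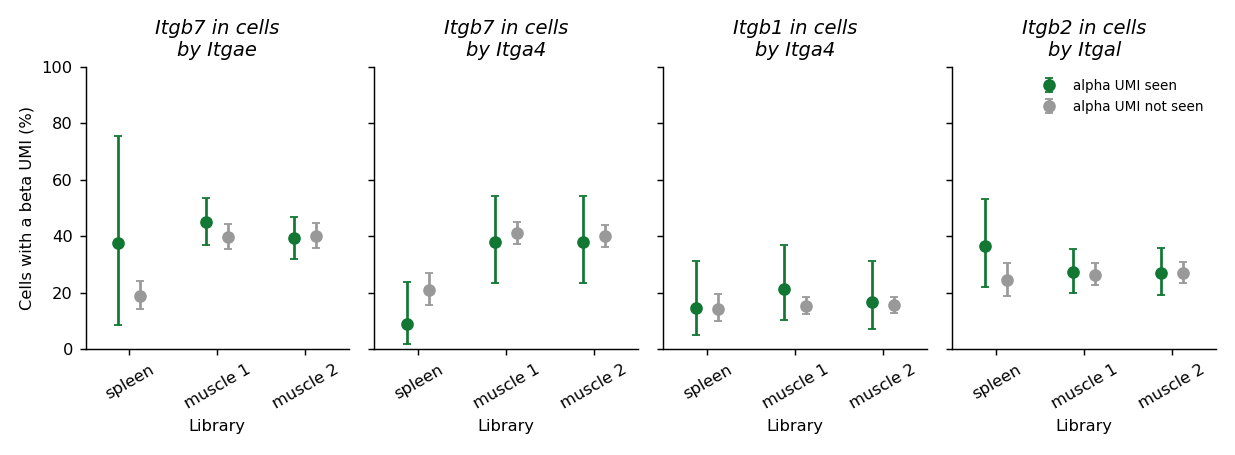
Percent of cells with a UMI of the beta chain among cells in which the alpha chain was seen (green) and not seen (grey), at 1000 UMIs per cell, for 4 pairs and each library; bars are exact 95% binomial intervals. Green and grey intervals overlap in every muscle library.

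Within a library, levels were then compared between cells with and without a UMI of a gene that marks a state: Gzmb (the granule protease granzyme B), Klrg1 (an inhibitory receptor of differentiated T cells), Il1rl1 (the interleukin 33 receptor), Penk or Ccr8, cycling genes, and interferon-response genes. Cells were split on thinned counts and levels taken from all their UMIs. Of 60 combinations of 6 states and 10 genes, 3 had intervals of the fold that left out 1 in the same direction in both muscle libraries: Itga4 and Itgb1 by Gzmb, and Itgb1 by Klrg1. UMIs cluster within cells, so these intervals are too narrow. How often other genes pass this rule was not counted, so the 3 are given as descriptions only.

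Itga4 was lower in muscle cells with Gzmb. It was at 62.4 CPM in cells with Gzmb and 142.8 CPM in those without in muscle library 1, where 48.3% of cells held Gzmb. In muscle library 2, where 42.5% did, it was at 52.6 and 136.1 CPM. This was 2.29 times (1.61 to 3.30) and 2.59 times (1.84 to 3.71) lower. A UMI of Itga4 was in 8.31% of cells with Gzmb and 15.2% without in muscle library 1, and in 7.19% and 14.2% in muscle library 2. Median UMIs per cell were close, at 2071 against 1943 and 2504 against 2484. Even the cells without Gzmb stayed below the spleen level of 219.8 CPM.

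Itgb1 was 1.63 times (1.33 to 2.01) and 1.58 times (1.32 to 1.89) lower in cells with Gzmb, at 205.8 against 335.8 CPM and 225.8 against 356.06 CPM. By Klrg1 it was at 162.6 against 322.3 CPM in muscle library 1 and 259.8 against 323.02 CPM in muscle library 2, 1.98 times (1.55 to 2.57) and 1.24 times (1.04 to 1.49) lower. Itgae went with neither gene in a steady way: its folds were 1.39 (1.16 to 1.68) and 0.99 (0.86 to 1.15) by Gzmb and 0.97 (0.79 to 1.18) and 1.40 (1.21 to 1.63) by Klrg1. Within muscle, then, Itgae mRNA was spread over cells with and without these markers.

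In spleen, Itgae was more frequent in cells with Klrg1 than in cells without. Of 23 spleen cells with Klrg1, 6 held Itgae (26.1%, 10.2 to 48.4), and of those without, 12 did (5.08%, 2.65 to 8.71). The levels were 168.8 and 25.3 CPM, a 6.68-fold difference (3.42 to 12.9), with 19 and 22 UMIs, so most of the spleen cells with Itgae, and the larger part of its UMIs, were without Klrg1. Of the 19 UMIs 1 cell gave 8, and without that cell, left out after seeing the data, the fold was 4.16 (1.82 to 8.96). All 6 cells with Klrg1 and Itgae also held a UMI of Itgb7, whose level was 1.96-fold (1.46 to 2.61) higher in the spleen cells with Klrg1, at 542.04 against 275.9 CPM. The cells with Klrg1 were deeper, with a median of 4780 UMIs against 3430.

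**Figure D5:**
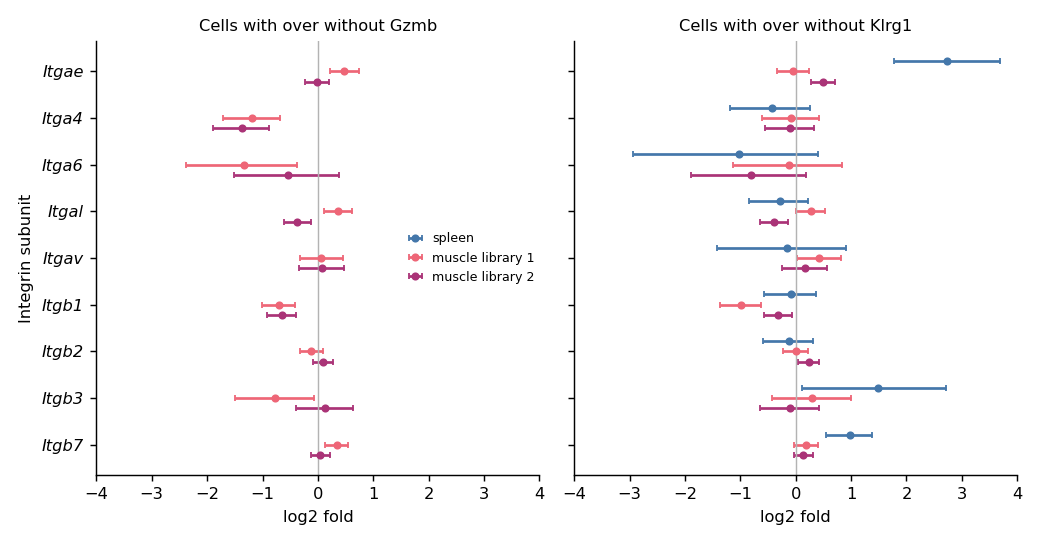
Log2 fold of each gene between cells with and without a UMI of Gzmb (left) or Klrg1 (right) within each library, with exact 95% intervals; spleen had under 20 cells with Gzmb and is not drawn there. Itga4 and Itgb1 lie below 0 in both muscle libraries by Gzmb, and Itgae lies far above 0 in spleen by Klrg1.

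The tissue difference of Itgae and Itgb7 was therefore also read between like cells, a comparison chosen after seeing the data. Among cells with Klrg1, Itgae was at 168.8 CPM in spleen and 310.8 and 471.5 CPM in muscle, folds of 1.84 (1.14 to 3.14) and 2.79 (1.76 to 4.70). Among cells without Klrg1 it was at 25.3, 321.3 and 335.7 CPM, folds of 12.7 (8.25 to 20.6) and 13.3 (8.65 to 21.4). Itgb7 was at 542.04, 568.2 and 642.02 CPM among cells with Klrg1, folds of 1.05 (0.79 to 1.41) and 1.18 (0.91 to 1.57), and at 275.9, 500.1 and 583.5 CPM among those without, folds of 1.81 (1.55 to 2.12) and 2.12 (1.82 to 2.46). For both genes the fold was smaller among cells with Klrg1, and the fold intervals of the 2 kinds of cell did not overlap. For Itgae this rests partly on the spleen cell with 8 UMIs: without it the spleen level among cells with Klrg1 was 105.3 CPM and the folds were 2.95 (1.60 to 6.04) and 4.48 (2.47 to 9.06). The second of these intervals overlaps that of cells without Klrg1. The spleen side of this rests on 23 cells, and the difference was not tested. It reuses the spleen counts that showed higher levels in cells with Klrg1 above, so it is no separate support.

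Of the other integrin chains, 17 were looked up and 2 alpha chains had 50 UMIs. Itga3, the alpha 3 chain that pairs with beta 1, had 2, 33 and 63 UMIs, or 2.04, 21.5 and 32.9 CPM, and was called higher at 10.6-fold (2.70 to 90.9) and 16.1-fold (4.29 to 136.3). At 1000 UMIs per cell it was in 0%, 1.08% and 2.62% of cells, which in muscle library 1 is the share of Itgb8 and in both muscle libraries is near those of Hba-a2 and Acta1. Itgam, a myeloid alpha chain, was at 13.2, 12.4 and 14.6 CPM.

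Counts for the other genes of the pathway are read against the 7.47% of all genes called higher and 3.45% called lower. Of the genes that activate integrins from inside the cell 16 were measured, 1 was called higher and 1 lower, close to those shares, and their log2 folds had a median of -0.0048. Skap2, an adaptor that links receptor signals to integrins, was at 15.3, 43.7 and 46.4 CPM, and Rasgrp2, the exchange factor that loads the small GTPase Rap1, at 45.8, 22.2 and 22.4 CPM. Of the genes listed as integrin tail adaptors, not all of which bind the tail directly, 19 were measured. Of these, 1 was called higher and 2 lower, with a median of 0.36. Parvg, the parvin of blood cells, was 2.55-fold (1.85 to 3.58) and 2.40-fold (1.75 to 3.35) higher. Actn1, an actin crosslinker, was 6.38 times (4.34 to 9.65) and 6.75 times (4.70 to 9.91) lower, and Evl, an Ena/VASP actin regulator, 10.3 times (7.14 to 15.2) and 6.83 times (5.15 to 9.16) lower. Talin 1 (Tln1) and kindlin 3 (Fermt3), which switch integrins on, were at 266.6, 311.1 and 376.2 CPM and at 212.7, 237.4 and 256.7 CPM.

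Of 10 membrane partners measured, 1 was called lower: the tetraspanin Cd9 had 71, 10 and 6 UMIs and was 11.1 times (5.69 to 24.1) and 23.1 times (10.1 to 65) lower in muscle. Of 10 ligand genes measured, 2 were called higher and 1 lower, with a median of 0.55. L1cam, an adhesion molecule that binds alpha V integrins, had folds of 2.56 (1.51 to 4.57) and 2.48 (1.48 to 4.38), and Adam9 had 3, 30 and 45 UMIs. Lrrc32, which presents latent TGF-beta on Tregs to alpha V integrins, was 4.77 times (3.61 to 6.39) and 3.33 times (2.65 to 4.21) lower. Icam1, the ligand of LFA-1, was at 148.6, 232.8 and 212.4 CPM. The early response genes, which handling can induce, summed to 6296, 11098 and 10954 CPM, with 4 of 16 called higher (Fosb, Jund, Nr4a1 and Zfp36) and 2 lower (Egr2 and Nr4a2); their part in the integrin differences was not tested.

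Across single muscle cells no gene followed an integrin gene closely. For the 7 integrin genes seen in at least 50 cells of each muscle library, the 3 most similar of 3538 genes had a smaller Pearson r, over the cells of each muscle library, of 0.09 to 0.17 on log values. The highest was between Itgb1 and Nrp1, at 0.17 and 0.22 in muscle and 0.28 in spleen. Nrp1, neuropilin 1, lies on the same strand of chromosome 8, 182.3 kb from Itgb1, with no coding gene between them. Itgb7 was most like S100a6 (0.20, 0.16 and 0.31 in spleen) and Itgae most like Arl5a (0.16 and 0.16). In counts this sparse such values are descriptions, and cells of a library share its depth.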

How the data were processed

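The authors deposited raw UMI counts per gene and cell for single Tregs profiled with inDrops, and the submitters' processing notes name the mm10 build, TopHat2 and SAMtools. How UMIs were collapsed, which annotation and strand were used and how cells were filtered: not given in the sources used here. Cells were assigned to libraries by the labels. All 1627 cells were kept, and doublets were not called; cells with over 3 times the median UMIs of the library, 0, 12 and 7 of them, were left out in an alternative. UMIs were summed per library and divided by the library total. Intervals are exact at 95%: Poisson for levels, conditional binomial for folds and binomial for shares. They cover counting error only. Where a library had 0 UMIs, 3 counts took their place. Thinning drew UMIs without replacement with a fixed seed. Scripts ran in Python 3.11.15 with scipy 1.17.1, and the scaling factors of edgeR 4.0.16 and DESeq2 1.42.0 were used as alternatives only. The call rule and intervals were run on simulated library sums drawn with Poisson counting error only. That leaves out the clustering of UMIs within cells, so it cannot show how well the intervals hold in these data.

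The integrin genes and the gene lists were chosen with earlier results of these data known. Named are all 10 integrin genes, the called genes of each list (at most the 4 with the greatest mean log2 fold) and the genes most alike over cells; Itgam, Tln1, Fermt3, Icam1 and the other marker genes were named as background after their values were seen. Similarity used counts scaled to 10000 per cell on a natural log of 1 plus the value, among genes with at least 200 UMIs. One of the cell states first compared is not reported here.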

Additional observations from a re-analysis of the deposited data

How the results depend on the processing

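Itgae was called higher under each of the 13 alternatives for the call, and its mean log2 fold ranged from 2.91 to 3.60 over 9 of them. The number of integrin genes called higher was 2 with a minimum of 10 UMIs (Itgb8 added), 3 with a fold of 1.5 (Itgb3 and Itgb7 added) and 2 without muscle library 1 (Itgb3 added), against 1 without muscle library 2. Over all genes, 9.19%, 15.9%, 10.9% and 10.3% were called higher under these settings, in that order. The number called lower was 1 with a minimum of 200 UMIs (Itga4), 0 with a fold of 3 and 0 with equal weight per cell. Of all genes, 1.82%, 0.945% and 4.28% were called lower there, in that order. Scaling with edgeR TMM factors, with DESeq2 size factors or without ribosomal protein genes changed neither number, although the last put 5.63% of all genes higher and 5.36% lower and moved the median log2 fold of all genes from 0.05 to -0.11. Leaving out cells whose barcode occurs in 2 libraries, an alternative chosen after seeing the data, changed neither number. Of the genes not called, Itgal (0.22) had the other sign at 1000 UMIs per cell. Itgb8 (-0.07) did too, but its spleen count there was 0 and was replaced by 3 counts. The sign for Itgb8 thus comes from that rule and shows no reversal. The lower share of Itga4 in muscle lost its gap between intervals with another thinning seed or at 1500 UMIs. There 2 genes (Itgae and Itgb7) kept theirs. Without thinning, at unequal depth, 4 genes had a gap: Itgae, Itgb7, Itga4 and Itga6, the last of which had none at 1000 UMIs. Such gaps were not counted over all genes. With states called from all UMIs, 5 combinations of gene and state passed in place of 3, and 1 fold turned, that of Itgav by Il1rl1 in muscle library 1, to 0.99. No paired analysis was possible because the labels name no animal. Depth limits Itgb8, Itgb3 and Itga6, and all partner counts in spleen.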
